A study of Homo sapiens with 20 samples.

Results

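The genes described here set and sense acidity at membranes: the calcineurin homologous proteins CHP1 and CHP2, the sodium-proton exchangers SLC9A5, SLC9A7, SLC9A8 and SLC9A9, and the carbonic anhydrases CA9 and CA12. They were taken by symbol, and 6 of the 8 had a row among the 24196 genes of the table used here. CHP2 and CA12 were not analysed here. The series addresses CHP1 and its partner TMEM87A in high-grade serous ovarian carcinoma, and asks what sodium gluconate, given to disturb that pair, does to tumors. Its 20 RNA-seq libraries include 8 of tumors, which were used here, and 12 of cultured cells with a knockout of CHP1 or TMEM87A and their controls, which were not analysed here.

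All 8 tumors grew from OVCAR8, an established human cell line of this carcinoma, in NSG mice, which lack mature lymphocytes and natural killer cells. The study's own text describes the material of this RNA-seq as gluconate-treated cells, but the sample labels, which are used here, name orthotopic tumors, and the study's methods place the injection in the ovarian fat pad of mice that were 6 weeks old. Control mice (4 tumors) received PBS and treated mice (4 tumors) received sodium gluconate. The efficacy experiment in the methods used 1 mg/kg once a week into the peritoneal cavity for 35 days, and the labels do not say whether the sequenced tumors are from it. The labels also do not say whether each tumor came from its own mouse, so p-values measure the spread between these samples. In bulk tumor RNA, fewer cells of a type and less RNA per cell cannot be told apart.

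Sodium-proton exchangers swap a sodium or potassium ion for a proton across a membrane, and each has its own compartment, from the cell surface to the Golgi and endosomes. CHP1 is a small calcium-binding protein that docks on the tail of exchangers and helps them work, and it also binds and activates the lipid enzyme GPAT4. Carbonic anhydrases turn carbon dioxide and water into bicarbonate and a proton, and the surface enzymes CA9 and CA12 do so outside the cell, where CA9 is widely used as a marker of hypoxia.

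Levels were deposited as FPKM, which is the number of sequenced fragments of a gene scaled to its length and to the depth of the library, so that levels of different genes can be set side by side. The steps between the values gave the fragments behind each of them. PBS replicate 4 rested on 3953206 fragments, against 39325749 to 46551535 in the other 7 tumors, and 15514 of its genes were above 0, against 19991 to 20251. The factor that brings its typical gene to the level of the other libraries was 0.843, against 1.00 to 1.05 for the others, so its typical gene was listed low. Differences between groups are therefore given with and without PBS replicate 4.

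Markers were checked against the labels. PAX8, the transcription factor of the Mullerian lineage, lay between 32.4 and 50.7 FPKM, and the 2 highest epithelial keratins, KRT8 and KRT18, between 699.7 and 1051 FPKM and between 513 and 987 FPKM. KRT19 was at or near 0, at most 0.0357 FPKM. Of the lists of other cell types, the 2 red blood cell genes (HBA1 and HBB) summed to at most 0.340 FPKM and the 4 endothelial genes, of which PECAM1 and VWF were highest, to at most 0.696 FPKM. Of the myeloid genes, CD68 reached 28.1 FPKM and ITGAM 1.36 FPKM, while the leukocyte gene PTPRC stayed at or below 0.0165 FPKM. The summed level of the 6 fibroblast genes was 44.7 FPKM in PBS replicate 4, 128 to 184 FPKM for the rest of the PBS group and 163 to 190 FPKM for the gluconate group, with COL1A2 and DCN near 0. COL1A1 made up most of it: the other 5 genes, of which LUM was highest, together came to 3.25 FPKM in PBS replicate 4 and to 6.67 to 8.92 FPKM in the other tumors. The part of this difference in the values below was not tested. Host cells of these tumors are from the mouse, the values are listed by human symbol, and the handling of mouse reads is not given. The marker levels therefore do not measure how much host blood, vessel, leukocyte or fibroblast tissue a tumor held.

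None of the pH regulators was called between gluconate and PBS tumors. CHP1 was by far the highest, at 24 to 28 FPKM in every tumor, the Golgi exchangers SLC9A7 and SLC9A8 lay near 2 FPKM, SLC9A5 near 1 FPKM, and CA9 and SLC9A9 below 0.5 FPKM. The count of members with an adjusted p under 0.05 was 0 of the 4 that could be tested, as for all 12486 genes tested (0%; limma, Benjamini-Hochberg, lowest adjusted p 0.741). At an unadjusted p under 0.05 it was also 0 of 4, against 577 genes or 4.62% of those tested, and with a 2-fold change added it was 0 of 4, against 0.296%. The same fit on recovered fragments (limma's voom) called 0 genes by adjusted p and 594 by unadjusted p, with 0 members in either. Without PBS replicate 4 the count of members was 0 of 4 as well, against 772 genes or 6.18%. In none of the 6 genes were the groups without overlap, where 3.49% of all tested genes had such groups, or 6.06% without PBS replicate 4. CA9 and SLC9A9 were under the floor of the fit, a mean of 0.5 FPKM, and were tested singly. All 4 tested members had a log2 fold change above 0, in a table where 66.4% of genes did. Without PBS replicate 4 the share was 48.9% of genes, and SLC9A7 was below 0.

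**Figure D1:**
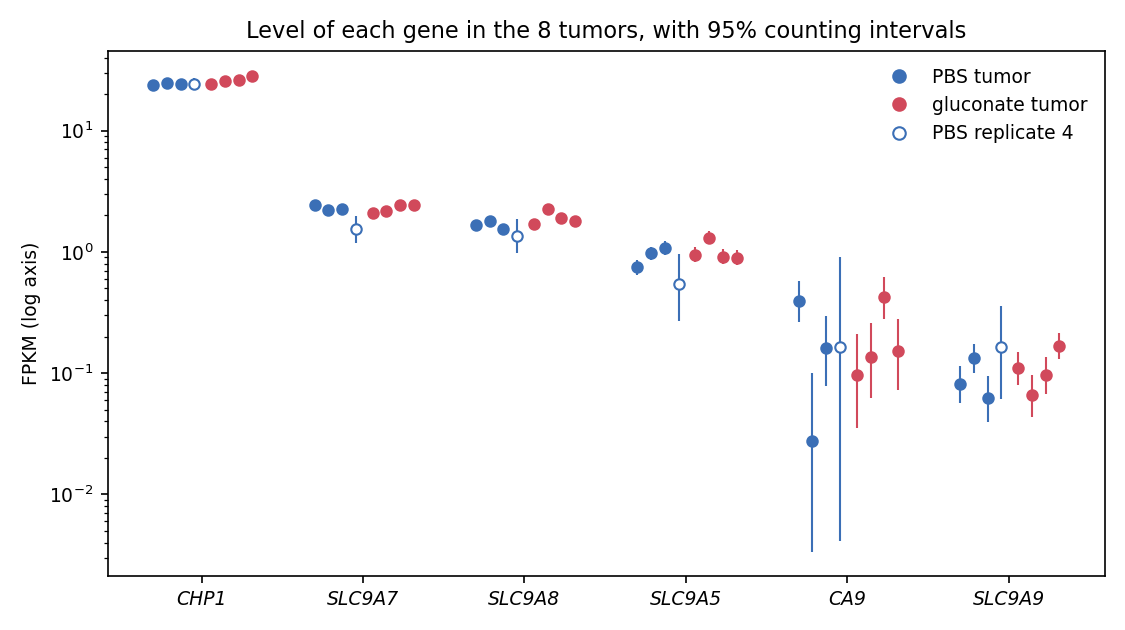
FPKM of the 6 genes (log axis) in each of the 4 PBS tumors (blue; open symbol for PBS replicate 4) and the 4 gluconate tumors (red), in order of replicate number from left to right. Bars are exact 95% Poisson intervals and cover counting error only; CHP1 stands alone at 23.8 to 28.1 FPKM, and the groups overlap for every gene.

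CHP1 lies on chromosome 15 (GRCh38 chr15:41230839-41281890, plus strand), with 9 annotated transcripts, the longest of 7 exons. The 300 bases around its RefSeq start (chr15:41231018-41231317, GRCh38.p14, plus strand, 250 before the start and 50 after) are shown because they belong to the member with the highest level. They were 66.3% G or C with 25 CpG pairs, against medians of 58.7% and 14 over 35116 promoters of the same length. The sequence holds neither ACGTG nor GCGTG on either strand, the letters searched as the core of the hypoxia response element, and so has no capitals.
CHP1 promoter: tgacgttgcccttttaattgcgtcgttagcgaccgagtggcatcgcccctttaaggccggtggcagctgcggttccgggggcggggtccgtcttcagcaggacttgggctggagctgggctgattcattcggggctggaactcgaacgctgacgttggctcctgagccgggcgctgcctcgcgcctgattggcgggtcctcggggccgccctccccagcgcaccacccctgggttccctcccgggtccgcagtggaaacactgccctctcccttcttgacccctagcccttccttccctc

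The study's RT-qPCR primers for CHP1 show which piece of the transcript its own measurements of CHP1 read. Both primers matched all 9 transcripts of the gene without a mismatch, and in the longest the product of 122 bases runs from exon 3 to exon 4.
CHP1 forward primer: ccagaggattccagaacttgcc
CHP1 reverse primer: ggcggaaatgagccaaagttcg

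In the 4 PBS tumors CHP1 was at 23.8, 24.7, 24.3 and 24.2 FPKM, from 3673, 3895, 3293 and 324 fragments. In the 4 gluconate tumors it was at 24.4, 25.7, 26.1 and 28.1 FPKM, from 3341, 3733, 3481 and 4076 fragments. Of the gluconate tumors, 3 were above the highest PBS tumor, and gluconate replicate 1 lay within the PBS range, so the groups overlapped. The mean was 24.2 ± 0.384 FPKM in PBS and 26.1 ± 1.53 FPKM in gluconate tumors (SD, n = 4 each). The log2 fold change was 0.10 ± 0.069 (SE; 95% interval -0.051 to 0.26; limma adjusted p = 0.741), which is a 1.08-fold difference in FPKM + 0.1 with an interval from 0.965- to 1.20-fold. An exact permutation test (two-sided, 70 splits of the 8 tumors) gave p = 0.0571, where 0.0286 is the smallest it can give. Without PBS replicate 4 the log2 fold change was 0.10 (limma adjusted p = 0.813; exact permutation p = 0.0857 over 35 splits). Without gluconate replicate 1 the log2 difference was 0.14 and the exact permutation p was 0.0286, while limma's adjusted p was 0.826. Leaving out that tumor separates the groups, so the exact p, the smallest those splits allow, followed from the choice of tumor. Rescaling the libraries made the difference smaller: it was 0.071 under quantile normalization (exact permutation p = 0.257) and 0.037 under median-ratio scaling (exact permutation p = 0.6).

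In FPKM as deposited, the PBS tumors were closer to each other in CHP1 than the gluconate tumors. Their variance was 0.937 times what counting alone gives, against 12.7 times in the gluconate tumors, and this difference in spread was not tested. It turned under median-ratio scaling, which put PBS replicate 4 at 28.7 and made the SD 2.54 in PBS and 1.53 in gluconate tumors. Under quantile normalization the SDs were 1.14 and 1.41. Without PBS replicate 4 the PBS SD was 0.468 as deposited, 0.606 under median-ratio scaling and 0.675 under quantile normalization. Each of these was below the gluconate SD of the same setting. Over all 8 tumors the SD of CHP1 was 0.080 on the log2 scale, lower than in all but 9.09% of the 3024 genes of like level, whose median SD was 0.15. Without PBS replicate 4 the SD of CHP1 was 0.082, at percentile 27.7 of the same genes, whose median SD was then 0.11.

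TMEM87A and GPAT4, partners of CHP1, were expressed at a level like its own. TMEM87A, a Golgi membrane protein, ran from 13.9 to 17.9 FPKM in PBS and from 15.7 to 18.6 FPKM in gluconate tumors, with a log2 fold change of 0.15 ± 0.10 (SE; limma adjusted p = 0.741; 0.11 without PBS replicate 4). GPAT4, the endoplasmic reticulum enzyme that starts glycerolipid synthesis, ran from 26.82 to 28.96 FPKM in PBS and from 28.6 to 30.4 FPKM in gluconate tumors, with a log2 fold change of 0.082 ± 0.065 (SE; limma adjusted p = 0.741; 0.062 without PBS replicate 4). Groups overlapped in both genes.

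Among the 12486 tested genes, those whose log2 levels followed CHP1 most closely over the 7 tumors other than PBS replicate 4 were PDZK1IP1, TMEM127 and CYBA. PDZK1IP1, a small membrane protein, had a Pearson r of 0.98 over the 7 tumors and 0.96 over all 8. CYBA, the membrane subunit shared by NADPH oxidases, had 0.97 and 0.92. TMEM127, an endosomal membrane protein, had 0.98 over the 7 tumors but 0.54 over all 8, since PBS replicate 4 had only 9.25 FPKM and the others 14.0 to 16.3 FPKM. These are the highest of many correlations over few tumors that share library depth, and the highest CHP1 value, in gluconate replicate 4, met the highest value of all 3 genes. The r of CHP1 with the other members over the 7 tumors ran from 0.021 for CA9 to 0.57 for SLC9A9.

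SLC9A7 (chrX:46599252-46759172, minus strand) encodes an exchanger of the trans-Golgi network that takes up sodium or potassium against protons. Its FPKM was 2.42, 2.23, 2.28 and 1.54 in the PBS tumors and 2.11, 2.17, 2.42 and 2.43 in the gluconate tumors. PBS replicate 4, with 61 fragments against 853 to 1106 in the others, was the lowest tumor, and the remaining 7 lay within 1.15-fold of each other. The means were 2.12 ± 0.394 FPKM in PBS and 2.28 ± 0.168 FPKM in gluconate tumors (SD, n = 4 each). The log2 fold change was 0.12 ± 0.16 (SE; 95% interval -0.24 to 0.48; limma adjusted p = 0.807). Its sign rested on PBS replicate 4, without which it was -0.019 (95% interval -0.25 to 0.21; limma adjusted p = 0.977). The SD of SLC9A7 on the log2 scale was 0.21 over all 8 tumors, at percentile 30.03 of the 3423 genes of like level, and 0.080 over the 7 deeper tumors, at percentile 4.76.

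SLC9A8 (chr20:49812713-49892242, plus strand) encodes a second Golgi exchanger, also found at the apical surface of some epithelia. It was at 1.66, 1.81, 1.55 and 1.37 FPKM in the PBS tumors and at 1.71, 2.26, 1.92 and 1.79 FPKM in the gluconate tumors. The highest PBS tumor lay above gluconate replicates 1 and 4, so the groups overlapped, although every gluconate tumor was above the PBS median of 1.60 FPKM. Means were 1.60 ± 0.187 FPKM in PBS and 1.92 ± 0.244 FPKM in gluconate tumors (SD, n = 4 each). The log2 fold change of 0.25 ± 0.15 (SE; 95% interval -0.082 to 0.58) had a limma adjusted p of 0.741 and an exact permutation p of 0.0857. Without PBS replicate 4, where SLC9A8 had 41 fragments, it was 0.18 (95% interval -0.10 to 0.47; limma adjusted p = 0.816).

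SLC9A5 (chr16:67237683-67272190, plus strand) encodes an exchanger best known from neurons, where it moves between recycling endosomes and the surface. The PBS tumors had 0.747, 0.974, 1.08 and 0.542 FPKM and the gluconate tumors 0.951, 1.31, 0.916 and 0.897 FPKM. Gluconate replicate 2 stood above the other 3 gluconate tumors, which fell within the range of the PBS tumors, and PBS replicate 4 was lowest with 11 fragments against 175 to 289. Means were 0.836 ± 0.241 FPKM in PBS and 1.02 ± 0.198 FPKM in gluconate tumors (SD, n = 4 each). The log2 fold change was 0.28 ± 0.24 (SE; 95% interval -0.25 to 0.81; limma adjusted p = 0.743). It dropped to 0.11 without PBS replicate 4 (95% interval -0.30 to 0.52; limma adjusted p = 0.913). It was 0.16 without gluconate replicate 2.

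Exons of SLC9A5 share 571 bases with exons of FHOD1, a formin gene on the opposite strand. FHOD1 was the more abundant: PBS replicate 4 had 2.96 FPKM of it and the other tumors 6.25 to 9.07 FPKM. Whether strand was used in counting is not given in the sources used here, so fragments from the shared bases may belong to either gene.

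SLC9A9 (chr3:143265222-143848531, minus strand) encodes an exchanger of late recycling endosomes. Its mean FPKM was the lowest of the members, although CA9 had the lowest single value. It was at 0.0813, 0.133, 0.0628 and 0.165 FPKM in the PBS tumors, from 34, 57, 23 and 6 fragments. The gluconate tumors had 0.111, 0.0662, 0.0970 and 0.168 FPKM, from 41, 26, 35 and 66 fragments. The ranges of the groups were almost the same, and the means were 0.111 ± 0.0472 FPKM and 0.111 ± 0.0427 FPKM (SD, n = 4 each). The difference in mean log2(FPKM + 0.1) was 0.0045 (two-sided exact permutation p = 0.971), and without PBS replicate 4 it was 0.12 (exact permutation p = 0.571). At this depth gluconate replicates 2 and 4 still differed beyond counting error, with 95% Poisson intervals of 0.0433 to 0.0971 and 0.130 to 0.214 FPKM.

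**Figure D2:**
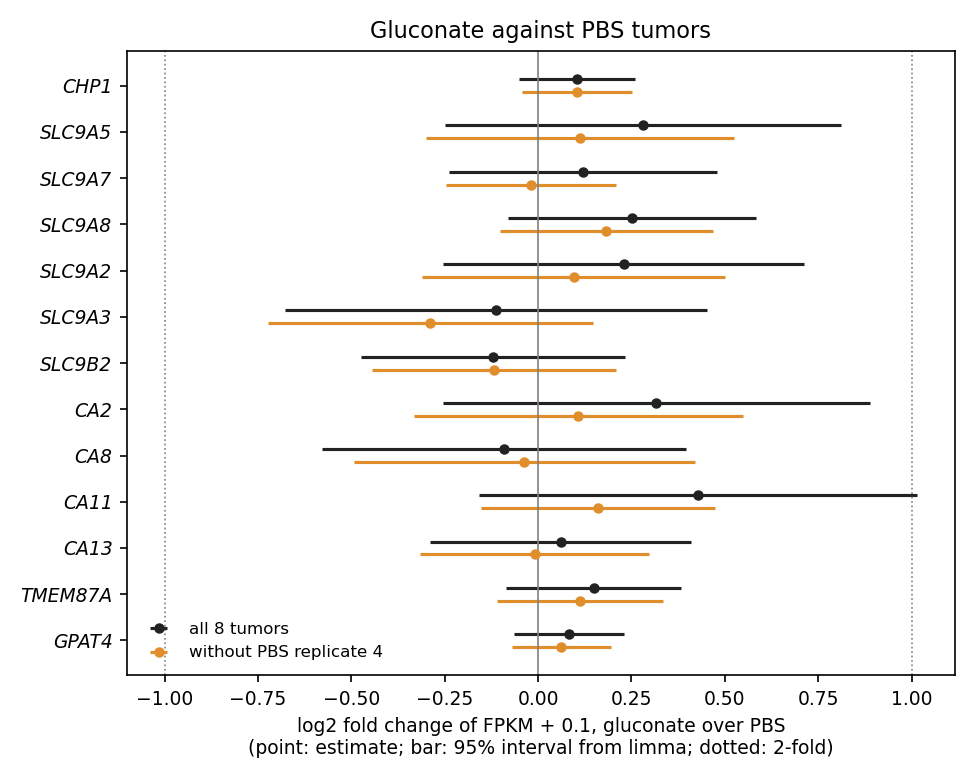
Log2 fold change of FPKM + 0.1, gluconate over PBS, for the 4 tested members, 3 other tested sodium-proton exchangers, the tested carbonic anhydrases, TMEM87A and GPAT4; points are estimates and bars limma's 95% intervals, for all 8 tumors (black) and without PBS replicate 4 (orange). All intervals cross 0, and that of CHP1 over all 8 tumors runs from -0.051 to 0.26.

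CA9 (chr9:35673856-35681159, plus strand) encodes a surface enzyme whose transcription is known to answer to hypoxia-inducible factors. Its RefSeq promoter (chr9:35673678-35673977, GRCh38.p14, plus strand) is shown because this element is the textbook route of its control. The capitals mark ACGTG, here on the opposite strand and read as CACGT on the printed one, 18 bases before the start. It was the only match to either motif in this window. ACGTG occurs on either strand in 21.4% of the 35116 promoters of this length, GCGTG in 36.5%, and at least 1 of them in 48.4%.
CA9 promoter: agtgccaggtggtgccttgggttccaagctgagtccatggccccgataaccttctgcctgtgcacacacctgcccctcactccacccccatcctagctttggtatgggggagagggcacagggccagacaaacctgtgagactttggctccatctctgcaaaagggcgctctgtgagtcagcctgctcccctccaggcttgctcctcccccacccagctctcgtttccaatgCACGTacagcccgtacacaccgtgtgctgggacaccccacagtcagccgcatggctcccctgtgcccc

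The promoters of SLC9A7 and SLC9A8 hold 1 GCGTG each, 147 and 79 bases before the start, and that of SLC9A5 holds CACGTG, which reads as ACGTG on both strands in overlapping positions. That of SLC9A9 holds neither motif and is poor in G and C, at 36.0% with 2 CpG pairs. These matches describe the letters of the windows, and no measurement of binding was used here.

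CA9 was scarcely present in the RNA. The PBS tumors had 0.397, 0.0278, 0.162 and 0.164 FPKM, from 28, 2, 10 and 1 fragments, and the gluconate tumors had 0.0962, 0.136, 0.428 and 0.151 FPKM, from 6, 9, 26 and 10 fragments. PBS replicate 1 and gluconate replicate 3 were the high tumors of their groups, and the groups overlapped over most of their range. The 95% Poisson interval of PBS replicate 1 was 0.264 to 0.574 FPKM and that of PBS replicate 2 was 0.00337 to 0.1004 FPKM, so tumors of the same group differed beyond counting error. The single fragment of PBS replicate 4 gave an interval of 0.00414 to 0.912 FPKM, which holds every other value of CA9.

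The group means of CA9 were 0.188 ± 0.153 FPKM in PBS and 0.203 ± 0.152 FPKM in gluconate tumors (SD, n = 4 each). The difference in mean log2(FPKM + 0.1) was 0.12 (two-sided exact permutation p = 0.914) and 0.13 without PBS replicate 4 (exact permutation p = 0.943). Its sign rested on single tumors: it was -0.22 without PBS replicate 2 and -0.18 without gluconate replicate 3. The variance within the groups was 8.49 times what counting gives in PBS and 7.09 times in gluconate tumors, and a difference between the groups was not detectable beyond this spread and this depth.

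Exons of CA9 share 643 bases with exons of ARHGEF39, a gene for a guanine nucleotide exchange factor on the opposite strand. ARHGEF39 was at 3.48 to 4.50 FPKM in all 8 tumors, far above CA9, so the few CA9 fragments may belong to either gene for the same reason as in SLC9A5.

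Levels of the other hypoxia-response genes in the same tumors differed widely from gene to gene. Of the list of 10, BNIP3, a mitochondrial protein of mitophagy, and NDRG1, a stress-response protein, had the highest means. BNIP3 lay between 89.6 and 151 FPKM and NDRG1 between 63.3 and 133 FPKM. The lowest of the list, named after their values were seen, were PDK1, a kinase that holds back pyruvate dehydrogenase, at 0.952 to 1.56 FPKM, and EGLN3, a prolyl hydroxylase, at 0.926 to 2.06 FPKM. The tumors with the highest CA9 were not those with the highest NDRG1: gluconate replicate 3 had 95.5 FPKM and PBS replicate 1 had 81.5 FPKM of NDRG1, while PBS replicate 3 had 133 FPKM. Over the 7 tumors other than PBS replicate 4, the r of CA9 was 0.17 with NDRG1 and 0.16 with BNIP3, as a description over few tumors with few CA9 fragments.

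**Figure D3:**
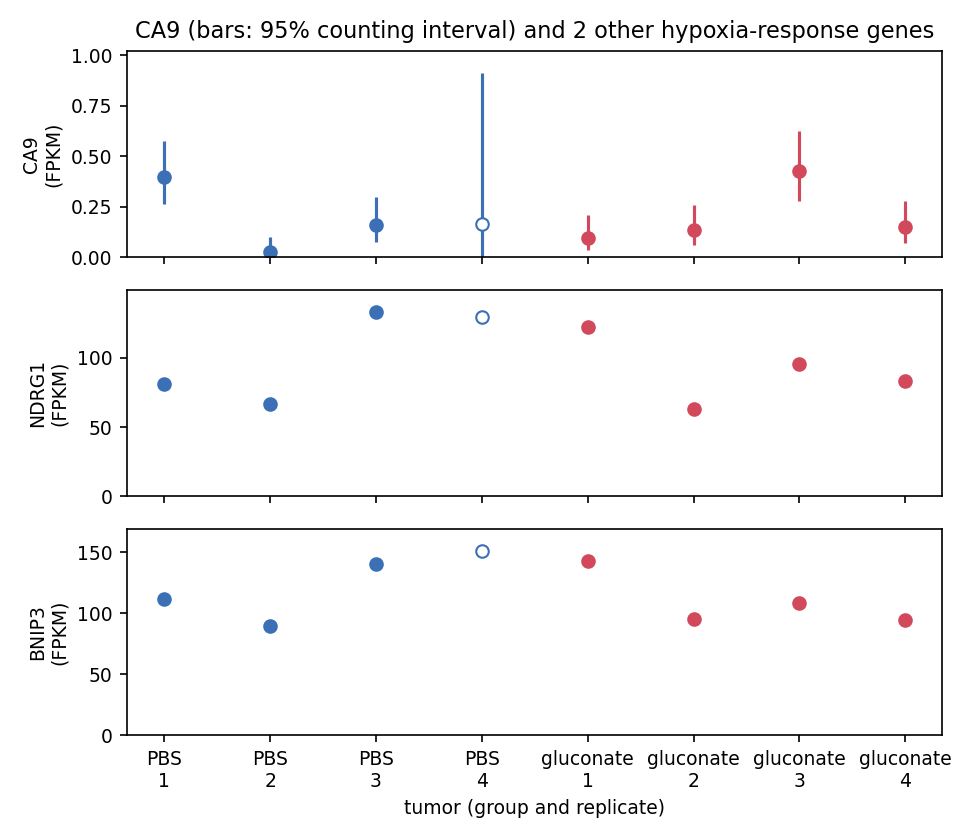
FPKM of CA9, NDRG1 and BNIP3 in each tumor (linear axes from 0; blue PBS, red gluconate, open symbol PBS replicate 4), with exact 95% Poisson intervals for CA9. CA9 is at most 0.428 FPKM in tumors where NDRG1 is at least 63.3 FPKM and BNIP3 at least 89.6 FPKM.

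The genes whose levels followed CA9 most closely over those 7 tumors were A2M-AS1, an antisense RNA gene, GPN1, a GTPase, and TIMMDC1, an assembly factor of respiratory complex I. Their r was 0.98, 0.97 and 0.96, and over all 8 tumors it fell to 0.19, 0.38 and 0.74. CA9 rested on only 2 to 28 fragments in each of those 7 tumors, which share library depth.

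From the highest to the lowest mean over the 8 tumors the order was CHP1, SLC9A7, SLC9A8, SLC9A5, CA9 and SLC9A9. CHP1 was 11.4 times SLC9A7 by means and higher in 8 of 8 tumors. SLC9A7 was 1.25 times SLC9A8 and higher in 7 of 8 tumors. Their ranges over tumors overlapped, but the ratio within a tumor, from 0.958 to 1.47, had a mean of 0.32 and an SD of 0.20 on the log2 scale. SLC9A8 was 1.89 times SLC9A5, and SLC9A5 was 4.75 times CA9, each higher in 8 of 8 tumors. CA9 was 1.76 times SLC9A9 by means but higher in only 4 of 8 tumors, so the last places were not separated. These pairs were taken from the order itself and were not tested. The order of the last places may also rest on gene length. The FPKM of SLC9A9 was made with a length of 9173 bases, against 4087 bases of annotated exons. The same fragments over the latter length would give a mean of 0.248 FPKM, above CA9 at 0.181 FPKM. How many of these fragments lie outside the annotated exons is not known, so the level of SLC9A9 at that length is not known either. For the other 5 members the length was 0.858 to 1.09 times that of their annotated exons.

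The members were next set among the rest of their families. Of 13 sodium-proton exchangers listed, 11 had a row and 8 were tested. An unadjusted p under 0.05 was found in 4.62% of all genes tested, so 0 in a short list says little. Of the 8 exchangers, 0 had such a p in either direction. Their median log2 fold change was 0.040, against 0.069 over all genes tested, and -0.029 against -0.0033 without PBS replicate 4, so that its sign rested on that tumor.

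Of 15 carbonic anhydrases listed, 12 had a row and 4 were tested. Again 0 had an unadjusted p under 0.05, against 4.62% of all genes tested. The highest was the cytosolic enzyme CA2, at 2.43 to 4.96 FPKM in PBS and 3.91 to 6.93 FPKM in gluconate tumors. For CA2 the log2 fold change was 0.32 ± 0.25 (SE; limma adjusted p = 0.741), and 0.11 without PBS replicate 4. Next was CA11, a family member without enzyme activity, with a log2 fold change of 0.43 ± 0.26 (SE; limma adjusted p = 0.741) that was 0.16 without PBS replicate 4. That tumor had the lowest value of both genes, at 2.43 FPKM for CA2 and 0.885 FPKM for CA11. By mean level CA2 was above CA9 in the same tumors, and CA4, CA5A, CA6 and CA7, named after their values were seen, had at most 1 fragment in any tumor.

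**Figure D4:**
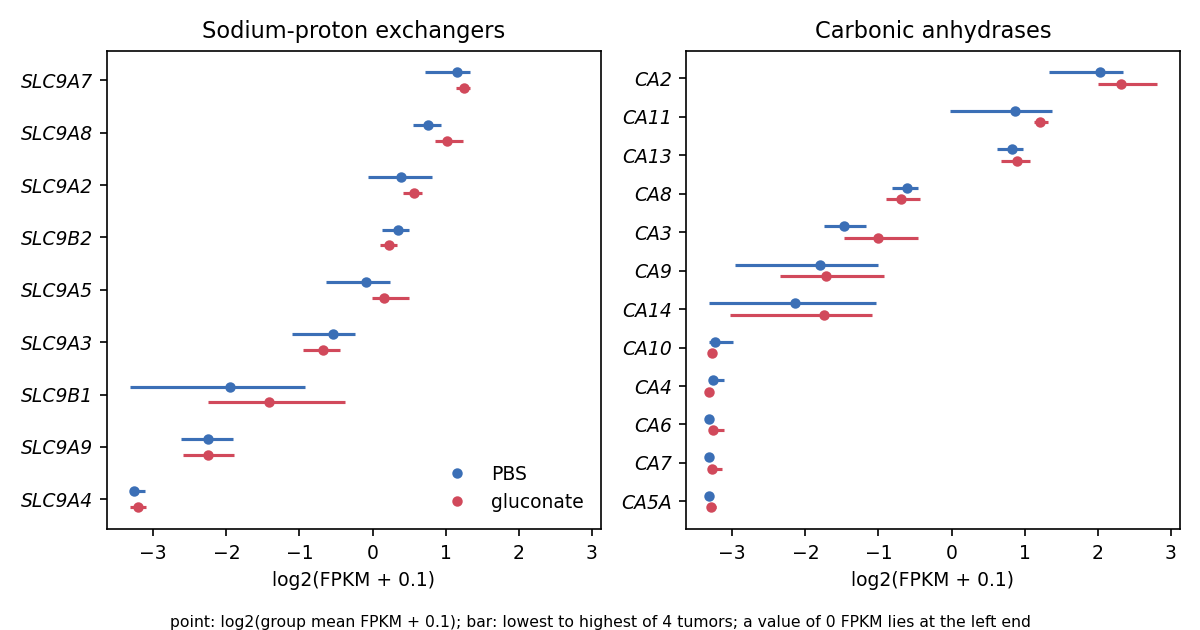
Level of 9 sodium-proton exchangers (left) and 12 carbonic anhydrases (right), as log2(FPKM + 0.1), in PBS (blue) and gluconate tumors (red). Points are the group means and bars run from the lowest to the highest of 4 tumors; SLC9A7 has a mean of 2.20 FPKM over the 8 tumors, and CA9 is the sixth carbonic anhydrase.

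The proteins that bind exchangers were measured in 7 of 10 listed genes. With all 8 tumors 0 of 7 had an unadjusted p under 0.05, against 4.62% of all genes tested. Ezrin (EZR), which ties membrane proteins to actin, was at 195 to 359 FPKM, and its relative moesin (MSN) at 109 to 124 FPKM. The log2 fold change of EZR was -0.096 ± 0.16 (SE; limma adjusted p = 0.839). Without PBS replicate 4, its lowest tumor, it was -0.25 (limma unadjusted p = 0.0477), where 6.18% of all genes had an unadjusted p under 0.05. The log2 fold change of MSN was -0.0025 ± 0.066 (SE; limma adjusted p = 0.991), or -0.023 without that tumor. TESC, also called CHP3 and so the other member of the calcineurin homologous family analysed here, was named after its values were seen. It was at 5.17 to 8.90 FPKM, with a log2 fold change of 0.16 ± 0.17 (SE; limma adjusted p = 0.781), or 0.11 without PBS replicate 4.

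With all 8 tumors, transporters of bicarbonate and lactate also had no member past an unadjusted p of 0.05, in 4 tested of 10 and 5 tested of 7 genes. The share over all genes tested was 4.62%. Of the bicarbonate group, the anion exchanger SLC4A2 was highest at 25.2 to 31.8 FPKM, followed by the sodium-bicarbonate cotransporter SLC4A7 at 3.90 to 5.32 FPKM. Their log2 fold changes were 0.021 ± 0.084 and -0.11 ± 0.12 (SE; limma adjusted p = 0.934 and 0.771). Leaving out PBS replicate 4 made them -0.042, with the sign turned, and -0.027. Of the lactate group, the chaperone BSG was at 273 to 315 FPKM and the transporter SLC16A1 at 49.8 to 79.6 FPKM. The log2 fold change of BSG was 0.031 ± 0.068 and that of SLC16A1 was -0.085 ± 0.14 (SE; limma adjusted p = 0.875 and 0.836). That of BSG was 0.037 without PBS replicate 4. The same tumor was the lowest for SLC16A1, and without it the log2 fold change was -0.23 (limma unadjusted p = 0.00864, adjusted p above the threshold). In that setting 6.18% of all genes had an unadjusted p under 0.05.

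The hypoxia-response genes, all 10 tested, and 6 of 7 hypoxia-inducible factor genes tested had 0 members at an unadjusted p under 0.05 in either direction. The share over all genes tested was 4.62%. The median log2 fold change was -0.068 for the response genes, of which 8 of 10 were below 0 against 33.6% of all genes tested, and 0.038 for the factor genes. The medians were -0.0016 and 0.022 without PBS replicate 4, and 5 of 10 response genes were below 0 against 51.1% of all genes. HIF1A, the oxygen-regulated subunit, was at 73.4 to 115 FPKM with a log2 fold change of 0.18 ± 0.16 (SE; limma adjusted p = 0.743), or 0.083 without PBS replicate 4. EGLN1, the prolyl hydroxylase that marks it for breakdown, was at 37.6 to 43.4 FPKM with a log2 fold change of 0.017 ± 0.070 (SE; limma adjusted p = 0.934), or 0.043 without it. Of the marker lists, only the epithelial list had a gene at an unadjusted p under 0.05, the keratin KRT7, with a log2 fold change of 0.73 ± 0.26 (SE; limma adjusted p = 0.741), or 0.48 without PBS replicate 4. It was 1 of 6 tested epithelial genes, against 4.62% of all genes. The higher keratins KRT8 and KRT18 had log2 fold changes of -0.20 and -0.33, or -0.21 and -0.31 without PBS replicate 4.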

How the data were processed

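The authors deposited FPKM values for 24196 genes by symbol. Per the labels, polyA RNA with an integrity number above 7 was sequenced, and the submitters' processing notes name GRCh38. Aligner, handling of mouse reads, counting, strand and annotation are not given in the sources used here. Columns headed C and T were read as PBS and gluconate. Members and gene lists were chosen with earlier results of these data known. Fragments per library were recovered from the steps between deposited FPKM values, and all values were within 0.001 of whole fragments. Exact 95% Poisson intervals cover counting error only. Differences were tested on log2(FPKM + 0.1), which understates changes of low genes, with limma 3.58.1 (trend) in R 4.3.3, over 12486 genes with a mean of at least 0.5 FPKM, with Benjamini-Hochberg adjustment over all of them. Single genes were compared with two-sided exact permutation tests. Genes of like level had a mean within 2-fold. Of each list, genes at an unadjusted p under 0.05 and the 2 highest were named, except exchangers whose values are not reported here. Markers named as near 0 were chosen after their values were seen. Gene positions and transcripts are from GENCODE 29, and promoters from RefSeq (GRCh38.p14), which held all 6 members. Alternatives were other pseudocounts, filters and scalings, voom on the recovered fragments, a replicate block and leaving out each tumor.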

Additional observations from a re-analysis of the deposited data

Results flagged for a closer look

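A tumor was taken as far from the others of its group where its gap to the nearest, divided by the whole range, passed Dixon's 95% critical value. Of 22 sets of 4 values examined, 5 held such a tumor, and chance alone gives about 1.1. The sets share tumors and are not independent, and 2 of the 5 are the depth of PBS replicate 4 and its number of genes above 0. SLC9A5 was at 1.31 FPKM in gluconate replicate 2 and at 0.897 to 0.951 FPKM in the other gluconate tumors. CA9 was at 0.428 FPKM in gluconate replicate 3 and at 0.0962 to 0.151 FPKM in the others. TMEM87A was at 17.9 FPKM in PBS replicate 1 and at 13.9 to 14.4 FPKM in the other PBS tumors. PBS replicate 4 stood apart in its 3953206 fragments and its 15514 genes above 0.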

How the results depend on the processing

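Of 135 recomputed values for the members over 16 alternatives, 122 kept their direction and their side of the threshold, 12 changed sign and 1 passed the threshold. For the members in the limma fit, most differences are counted under both limma and the exact permutation test. These counts are therefore not of separate results. Over the tumors left out in turn, the log2 difference of CHP1 ran from 0.068 to 0.14, that of SLC9A5 from 0.11 to 0.41, that of SLC9A8 from 0.17 to 0.31, that of SLC9A7 from -0.019 to 0.19, that of SLC9A9 from -0.12 to 0.12 and that of CA9 from -0.22 to 0.44. The value of CHP1 that passed was 0.14 without gluconate replicate 1, a choice that separates the groups. CHP1 had its lowest value, 0.037, under median-ratio scaling (exact permutation p = 0.6). SLC9A9 was also below 0 with a pseudocount of 1 (-3.56e-05), median-ratio scaling (-0.038) and quantile normalization (-0.11), the last of which gave -0.014 for CA9. CA9 moved to 0.019 with a pseudocount of 1, 0.31 with a pseudocount of 0.01 and 0.076 under median-ratio scaling. SLC9A7 moved to 0.056 under median-ratio scaling, 0.025 under quantile normalization and 0.020 with voom, SLC9A8 to 0.16 under quantile normalization, and SLC9A5 to 0.14 with a pseudocount of 1, 0.16 under quantile normalization and 0.18 with voom. The cause was not tested. Genes at an unadjusted p under 0.05 numbered 577, 1028 without the filter, which tests more genes, and 267 to 1214 with a tumor left out. It was 267 without gluconate replicate 4, 289 without gluconate replicate 3, 873 without PBS replicate 2 and 1214 without PBS replicate 1. The 577 split into 391 higher and 186 lower, against 368 and 350 under median-ratio scaling and 353 and 419 without PBS replicate 4. No gene had an adjusted p under 0.05 in any of these fits.

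Replicate numbers are shared by the groups, but same-numbered tumors did not deviate together (r from -0.178 to 0.165). So few correlations cannot show whether same-numbered tumors shared a batch. With the replicate block, 470 genes had an unadjusted p under 0.05 and 0 an adjusted p under 0.05, and the log2 fold changes were the same (CHP1 0.10). Depth limits CA9 and SLC9A9, with 1 and 6 fragments in PBS replicate 4.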
